A study of Drosophila melanogaster with 3 samples.

Results

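Polycomb target genes outside the Hox clusters were set against the other genes of their chromosome arms in 3 maps of chromosome contacts from Drosophila melanogaster cells. The list held 35 genes, chosen because they are known in flies as targets of Polycomb repression. It was drawn up with earlier results of these data known. Of these 35 genes, 34 were found by name among the 12271 gene names of the authors' deposited peak-to-feature tables. The remaining one, eve, was not analysed here. Of the 34 members, 14 lay on arm 2L, 7 on 2R, 3 on 3L, 7 on 3R, 2 on chromosome 4 and 1 on the X.

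Polycomb group proteins keep developmental regulator genes silent in cells where they are not needed. They bind Polycomb response elements and modify the histones of the surrounding chromatin, and in flies silenced targets that lie far apart on the chromosome, including Hox genes, have been seen to meet in Polycomb bodies of the nucleus. Most of the genes listed here encode transcription factors or secreted signals that pattern the embryo, and some encode Polycomb group proteins themselves. Neither Polycomb binding nor transcription was measured in these data, so whether each gene was under Polycomb repression in the cells used was not tested, and cell type markers could not be examined.

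All arrays used S2-DRSC cells, an established line of embryonic Drosophila cells described as control S2 cells, so the findings are of 1 cell line. In circular chromosome conformation capture (4C), cross-linked chromatin was cut with DpnII and ligated, and the DNA joined to a chosen bait fragment was amplified by inverse PCR. The baits were binding sites of insulator proteins: BaitA at chr3R:91997-92920, BaitB at chr2L:8485115-8485894 and BaitC at chr3R:384440-385252. Positions throughout are as deposited, on a build whose arm lengths match Drosophila Release 5 but which the files do not name. One tiling array with 2 channels was hybridised for each bait. The 4C product carried Cy5, and unligated genomic DNA cut with DpnII carried Cy3 and was the background against which each probe was read. With 1 array per bait there was no replicate check, no test was run and p-values are not given.

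The arrays tiled the genome with 2157868 probes, spaced by a median of 55 bp. The SD over probes was 2.45 for BaitA, 2.50 for BaitB and 1.50 for BaitC, so a given log2 difference was rarer in the BaitC array. Probes inside each bait averaged 7.53 to 8.57 in their own array after centring, which put the 4C channel in the numerator. Per the file headers, BaitB and BaitA were hybridised to the same slide one after the other, and BaitC was a later hybridisation of another slide. The effect of that reuse on the values was not tested.

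For each gene the log2 ratios were centred on the array's median and averaged over probes within 1 kb of its listed starts and, separately, over its listed span. The listed spans appear to be coding spans. Among 5404 spans under 1500 bp, 57.9% were multiples of 3, where arbitrary lengths would give 33.3%, and the spans of all 34 members were shorter than the gene in the Release 6 annotation. The listed span of dpp, for example, was 3490 bp against a gene of 31452 bp. The starts used here are therefore likely translation starts, and the promoter of a gene with a long first intron can lie outside both windows. A member's start window held 32 to 107 probes and its span 18 to 1790 probes. Errors are SDs over probes, which measure spread along the DNA and not replicate error. Probes are not independent either, since values at adjacent probes correlated at 0.89 with BaitA, 0.88 with BaitB and 0.74 with BaitC. No member lay within 200 kb of a bait, the nearest being wg, 1170 kb from BaitB.

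At their starts the members did not share a level in any array. Of the 34, 14 lay above the gene median of their arm with BaitA, 18 with BaitB and 18 with BaitC, where 50.0% of all genes lie above it by construction. Their median difference from the arm's gene median was -0.37 in BaitA, 0.13 in BaitB and 0.01 in BaitC. A gene was counted as high or low when it differed from that median by at least 1 on the log2 scale. By that count 8 members were high with BaitA, where 25.6% of 12163 genes were, and 10 were low, where 25.4% were. With BaitB 11 members were high, against 26.2% of 12152 genes, and 9 were low, against 26.4%. With BaitC 1 member was high, against 9.55% of 12171 genes, and 3 were low, against 9.42%. Within 0.5 kb of starts the members low with BaitA numbered 17, against 30.7% of all genes, and within 5 kb they numbered 5, against 10.8%. The spread of the members was near that of all genes, with SDs of 1.49 for members and 1.44 for all genes with BaitA, 1.61 and 1.47 with BaitB, and 0.64 and 0.76 with BaitC.

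Over the listed spans the members lay closer together and, in the BaitA array, lower. Of the 34, 11 lay above the arm's gene median with BaitA, 18 with BaitB and 14 with BaitC, against 50.0% of all genes. The median differences were -0.75 with BaitA, 0.02 with BaitB and -0.12 with BaitC. With BaitA 3 were high, against 25.1% of 11999 genes, and 12 were low, against 22.9%. With BaitB 4 were high, against 25.8% of 11987 genes, and 5 low, against 23.4%. With BaitC none of the 34 was high, against 11.3% of 12009 genes, and 3 were low, against 9.18%. When the median over probes was taken in place of the mean, 12 spans were high with BaitB, against 32.8% of all genes. The SD was 1.00 over members and 1.47 over all genes with BaitA, 0.99 and 1.51 with BaitB, and 0.49 and 0.83 with BaitC. The members' spans were also longer, with a median of 7.2 kb against 1.71 kb over all genes, so their means were over more probes. Against genes of similar span on the same arm, 12 members lay above the median with BaitA, 19 with BaitB and 15 with BaitC. The median differences were then -0.58 with BaitA, 0.06 with BaitB and -0.04 with BaitC. Whether length accounts for the narrower spread was not tested.

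**Figure D1:**
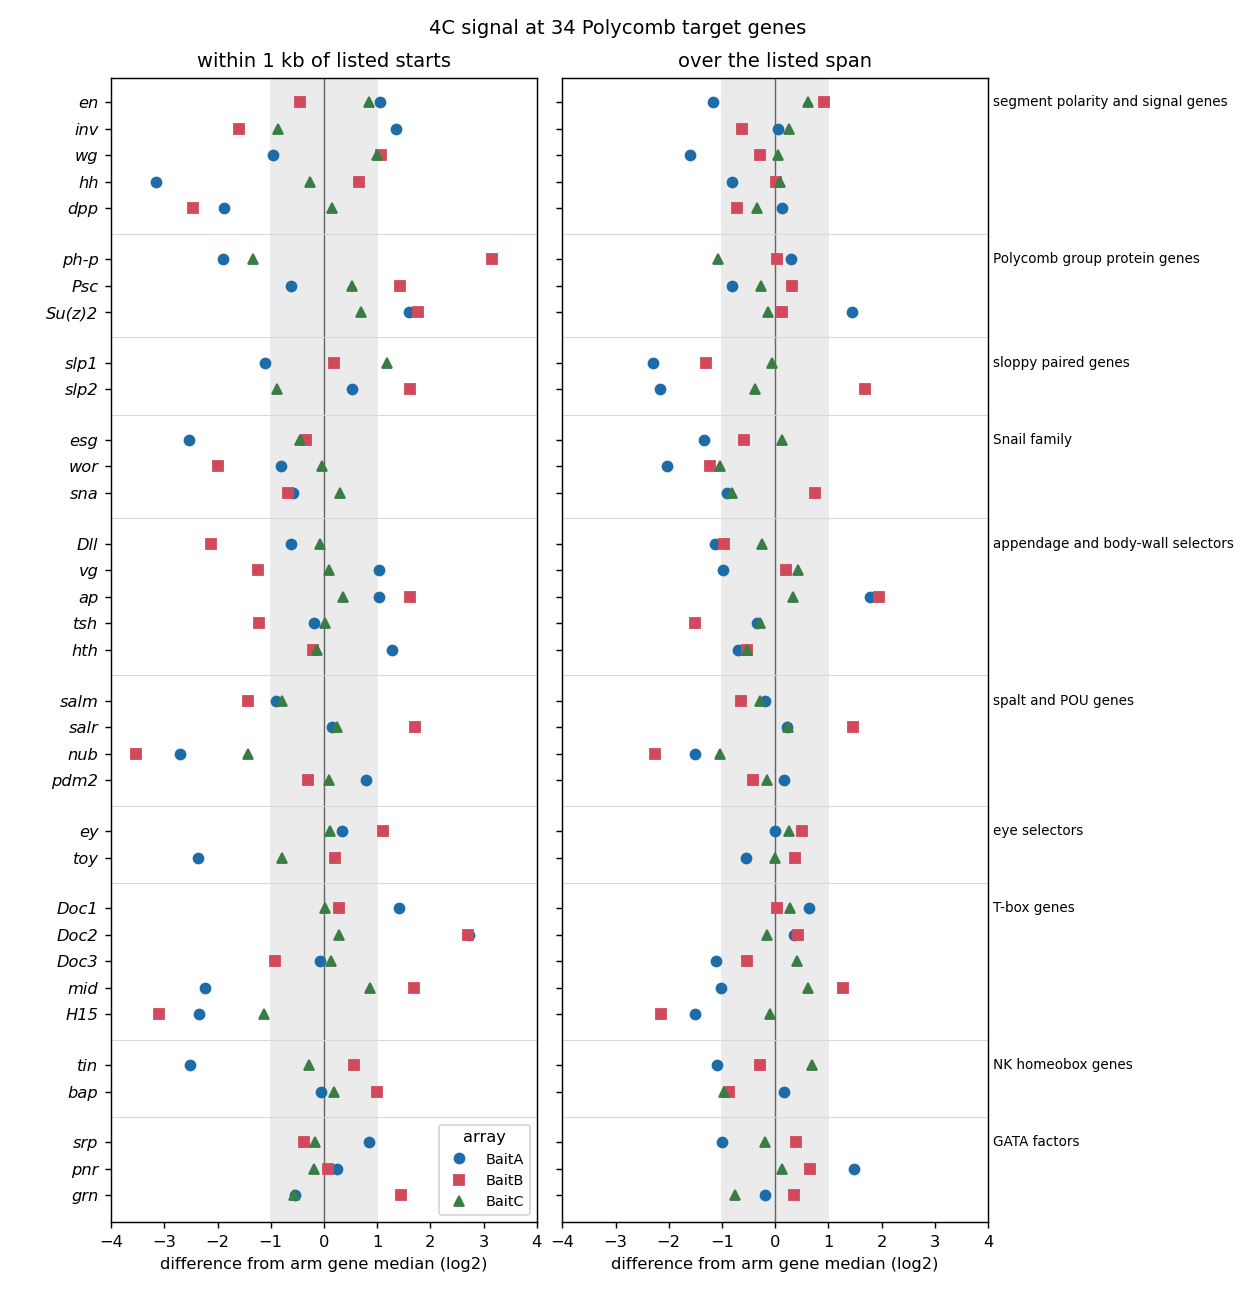
Difference of each of the 34 members from the gene median of its chromosome arm, in log2 units on the horizontal axis, within 1 kb of listed starts (left) and over the listed span (right), with genes grouped by role down the page. Points mark the arrays (circle BaitA, square BaitB, triangle BaitC) and the grey band marks differences under 1. Start values reach from -3.54 (nub, BaitB) to 3.15 (ph-p, BaitB), and the BaitC points stay closest to 0.

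The members of arm 2L lay low in the BaitA array. There 3 of the 14 members lay above the arm's gene median at starts and 3 of 14 over spans, with median differences of -0.93 and -1.17. On 2R the starts went the other way, with 5 of 7 above and a median difference of 1.04, while 3 of 7 spans were above. With BaitB, whose bait is itself on 2L, 5 of the 14 members of that arm lay above the median at starts and 4 over spans. The 2L gene median in that array was 1.49 at starts, against 0.55 on 2R and 0.18 on 3R, so a member of 2L can be positive there and still lie below its arm. On 3R, the arm of BaitA and BaitC, 3 of 7 starts were above with BaitA, 5 with BaitB and 1 with BaitC. The members of 2L include 5 groups of close neighbours, which are not independent of each other.

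Among the segment polarity and signal genes, values differed in sign from gene to gene and from bait to bait. The gene en (chr2R:7412103-7415175, minus strand), a homeodomain factor of posterior compartments, averaged 1.64 ± 2.67 with BaitA, 0.09 ± 2.28 with BaitB and 1.01 ± 1.30 with BaitC (SD over 35 probes). Its paralog inv (chr2R:7363480-7394423, plus strand) averaged 1.94 ± 1.48 with BaitA, -1.04 ± 2.63 with BaitB and -0.69 ± 2.09 with BaitC (SD over 36 probes). Both starts were high with BaitA, by 1.06 and 1.36 above the 2R median. With BaitB inv was low, by 1.59, and with BaitC en was among the 5 highest members and inv among the 5 lowest, at 0.85 and -0.86. The Wnt ligand gene wg (chr2L:7307591-7315186, plus strand) averaged -0.26 ± 2.33 with BaitA, 2.57 ± 2.41 with BaitB and 1.18 ± 1.63 with BaitC over 68 probes of a pair of listed starts. It lay 1.08 above the 2L median with BaitB and 1.00 above it with BaitC, there just short of counting as high, but 0.96 below it with BaitA. The gene of the ligand Hedgehog, hh (chr3R:18954459-18967243, minus strand), had the lowest start of any member with BaitA, -2.77 ± 0.88 over 36 probes, at percentile 1.2 of the genes of 3R. In the other arrays it stood at 0.83 ± 2.17 with BaitB and within 0.01 of 0 with BaitC. It differed from the 3R median by 0.66 with BaitB and -0.27 with BaitC. The BMP ligand gene dpp (chr2L:2455070-2458560, plus strand) averaged -1.18 ± 1.90 with BaitA, -0.97 ± 2.30 with BaitB and 0.35 ± 1.27 with BaitC over 36 probes, which put it 1.88 and 2.46 below the 2L median in BaitA and BaitB. Over the spans none of these 5 genes was high in any array, and en and wg were low with BaitA, at differences of -1.16 and -1.60.

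The 3 members that encode Polycomb group proteins themselves were all high at their starts with BaitB. The gene ph-p (chrX:2020841-2030084, minus strand), which encodes a core subunit of a Polycomb repressive complex, averaged -2.29 ± 0.86 with BaitA, 2.82 ± 1.07 with BaitB and -0.86 ± 0.92 with BaitC over 35 probes. It was therefore the highest member with BaitB, 3.15 above the X median and at percentile 98.8, and low in the other arrays, at percentile 2.9 in each. Psc (chr2R:8854022-8865668, minus strand), another core subunit, differed from the 2R median by -0.62 with BaitA, 1.43 with BaitB and 0.52 with BaitC. Its neighbouring paralog Su(z)2 (chr2R:8886840-8891881, plus strand) averaged 2.18 ± 1.75 with BaitA, 2.32 ± 1.09 with BaitB and 0.86 ± 1.32 with BaitC over 37 probes, and was among the 5 highest members in every array. Over the spans the 3 genes lay between 0.04 and 0.32 above their arm medians with BaitB, so none of those spans was high. With BaitC all 3 spans lay below, by as much as 1.07 for ph-p.

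The sloppy paired genes slp1 (chr2L:3825783-3826752) and slp2 (chr2L:3837197-3838553), both on the plus strand, encode forkhead factors of embryo segmentation. The start of slp1 averaged -0.41 ± 2.23 with BaitA, 1.67 ± 2.15 with BaitB and 1.36 ± 1.92 with BaitC over 36 probes, and was the highest member with BaitC, 1.18 above the 2L median. That of slp2, 11.4 kb away, averaged 1.22 ± 2.97 with BaitA, 3.12 ± 0.78 with BaitB and -0.70 ± 1.54 with BaitC over 37 probes and was among the lowest with BaitC, 0.89 below that median. Over their short spans both genes were low with BaitA, by 2.29 and 2.17, and with BaitB they parted, at -1.30 for slp1 and 1.68 for slp2.

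No start of the Snail family lay above the 2L median with BaitA or BaitB. The zinc finger gene esg (chr2L:15334093-15335506, plus strand), which keeps fly stem and progenitor cells undifferentiated, averaged -1.83 ± 1.22 with BaitA, 1.16 ± 2.91 with BaitB and -0.27 ± 2.08 with BaitC over 36 probes. Its difference of -2.53 with BaitA was among the 5 lowest. The neuroblast factor gene wor (chr2L:15423721-15425430, minus strand) averaged -0.11 ± 2.67 with BaitA, -0.50 ± 2.16 with BaitB and 0.14 ± 1.46 with BaitC over 37 probes, and lay 1.99 below the 2L median with BaitB. Over its span wor was low in every array, by 2.03 with BaitA, 1.22 with BaitB and 1.03 with BaitC. The mesoderm factor gene sna differed from the 2L median by -0.59 with BaitA, -0.68 with BaitB and 0.30 with BaitC at its start. With BaitB the flanks of these starts, defined further on, were low too. They differed from the arm's median flank by -0.4 for esg, -0.75 for wor and -0.66 for sna. Against its own flanks the BaitB start was higher in esg and sna, by 0.6 and 0.52, and contrasted by -0.71 in wor. With BaitA the flanks differed by 0.43 for esg, -0.06 for wor and 0.01 for sna. Whether distance from BaitB along 2L accounts for its low values here was not tested.

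Of the appendage and body-wall selectors, ap was high at its starts and over its span with BaitA and BaitB, and Dll lay below its arm in all 3 arrays. The LIM homeodomain gene ap (chr2R:1595437-1613364, minus strand), which sets dorsal identity in the wing, averaged 1.63 ± 1.41 with BaitA, 2.17 ± 1.44 with BaitB and 0.52 ± 1.27 with BaitC at its starts, over 72 probes. It was chosen for these full values after they were seen. Its span averaged 2.16 ± 1.71 with BaitA, 2.45 ± 1.42 with BaitB and 0.43 ± 1.12 with BaitC over 318 probes, which exceeded the 2R median by 1.79 with BaitA, 1.96 with BaitB and 0.34 with BaitC. The sequence 10 to 50 kb from its starts was high as well with BaitA, 1.71 above the same measure for genes of 2R, and 0.87 above it with BaitB. The gene Dll (chr2R:20702959-20721695, plus strand), needed for distal limb structures, averaged -0.04 ± 2.07 with BaitA, -1.57 ± 1.39 with BaitB and 0.09 ± 1.46 with BaitC over 36 probes, at differences of -0.62 with BaitA, -2.13 with BaitB and -0.08 with BaitC. The wing gene vg was high with BaitA and low with BaitB, at differences of 1.04 and -1.24, and 0.10 with BaitC. The trunk gene tsh was low with BaitB, at -1.22, and within 0.19 of the 2L median in the other arrays.

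The homeobox gene hth (chr3R:6337098-6438721, minus strand) encodes a partner of Hox proteins and had by far the longest listed span of the members, 101623 bp. Its starts averaged 1.65 ± 1.79 with BaitA, -0.02 ± 2.88 with BaitB and 0.14 ± 0.84 with BaitC over 70 probes, so they were high with BaitA only, by 1.27. The span mean lay below the 3R median in all 3 arrays, at differences of -0.69 with BaitA, -0.53 with BaitB and -0.53 with BaitC. In 21 consecutive segments of up to 5 kb the BaitA signal ran between -2.78 ± 0.90, at 45 to 50 kb from the upstream end, and 1.35 ± 1.66, at 95 to 100 kb. The BaitB signal ran between -2.48 ± 1.37, at 90 to 95 kb, and 1.23 ± 1.54, at 65 to 70 kb. The BaitC signal stayed between -1.20 ± 1.04 and 0.79 ± 1.43. The BaitA signal stayed below 0 from 60 to 85 kb, and the BaitB signal in 6 consecutive segments, from 70 to 100 kb. Some lows coincided: the segment at 35 to 40 kb averaged -2.22 with BaitA, -2.38 with BaitB and -0.71 with BaitC, and that at 70 to 75 kb averaged -2.47 with BaitA, -2.05 with BaitB and -0.46 with BaitC. Other segments differed, as at 65 to 70 kb, with -1.97 in the BaitA array against 1.23 in the BaitB array.

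**Figure D2:**
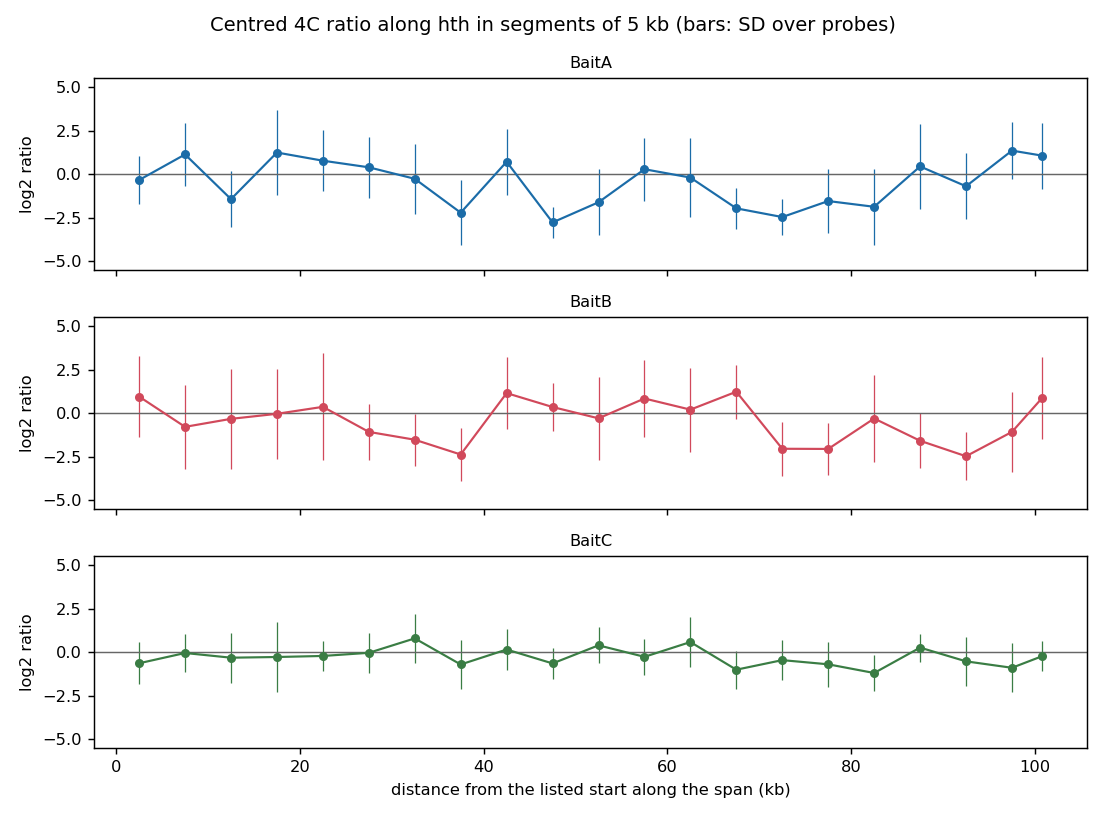
Centred log2 ratio of 4C product over unligated DNA along the listed span of hth, from its upstream end, as means of 5 kb segments in the BaitA, BaitB and BaitC arrays (top to bottom), with bars for the SD over probes. Segment means lie between -2.78 and 1.35 with BaitA, between -2.48 and 1.23 with BaitB and between -1.20 and 0.79 with BaitC.

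The spalt and POU genes held the lowest member in the BaitB and BaitC arrays. The POU gene nub (chr2L:12618995-12627085, plus strand), required for wing growth, averaged -2.0 ± 1.84 with BaitA, -2.05 ± 1.73 with BaitB and -1.24 ± 1.99 with BaitC at its start, over 35 probes. Its differences from the 2L median were -2.70 with BaitA, -3.54 with BaitB and -1.42 with BaitC, within the lowest 2.7% of the arm's genes each time. Its span was low in every array too, by 1.51 with BaitA, 2.25 with BaitB and 1.03 with BaitC. The start windows of its paralog pdm2 (chr2L:12660465-12685825, plus strand) averaged 1.49 ± 1.28 with BaitA, 1.19 ± 2.87 with BaitB and 0.28 ± 1.26 with BaitC over 70 probes, above nub in each array. The zinc finger gene salm (chr2L:11435894-11445178, minus strand), which patterns wing and trachea, averaged -0.20 ± 1.27 with BaitA, 0.07 ± 3.13 with BaitB and -0.60 ± 1.63 with BaitC over 36 probes, below the 2L median in each array. Its relative salr (chr2L:11366412-11373209, plus strand) averaged 0.86 ± 1.59 with BaitA, 3.20 ± 2.18 with BaitB and 0.44 ± 1.08 with BaitC over 37 probes, above that median in each array and by 1.71 with BaitB.

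The eye selectors ey (chr4:725790-741548) and toy (chr4:1010877-1026786), both on the plus strand, are paired-box genes on the small chromosome 4, where 80 genes set the reference. The starts of ey differed from the chromosome's gene median by 0.33 with BaitA, 1.11 with BaitB and 0.12 with BaitC. That of toy averaged -1.35 ± 2.61 with BaitA, 0.36 ± 2.33 with BaitB and -0.22 ± 1.33 with BaitC over 35 probes, at differences of -2.36 with BaitA, 0.20 with BaitB and -0.79 with BaitC. The spans of both lay within 0.55 of the median in every array.

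The T-box genes spanned most of the range of the members. Doc2 (chr3L:9005965-9011991, minus strand), 1 of 3 clustered genes that act in amnioserosa and heart, averaged 3.13 ± 1.75 with BaitA, 2.90 ± 1.85 with BaitB and 0.49 ± 1.05 with BaitC at its start, over 36 probes. It was the highest member with BaitA, 2.73 above the 3L median at percentile 98.3, and the second highest with BaitB, 2.71 above it at percentile 97.7. Over its span of 6026 bp the same gene lay only 0.36 and 0.43 above that median. Doc1 (chr3L:9034639-9037957, plus strand) averaged 1.81 ± 3.51 with BaitA, 0.48 ± 2.14 with BaitB and 0.22 ± 1.13 with BaitC over 36 probes, high with BaitA by 1.41. Doc3 (chr3L:8998417-9000075, plus strand) averaged 0.32 ± 2.21 with BaitA, -0.73 ± 2.28 with BaitB and 0.34 ± 1.39 with BaitC over 36 probes, within 1 of the 3L median in each array. The related pair mid and H15 act in heart and segment patterning. The start of mid (chr2L:5461917-5466712, plus strand) averaged -1.53 ± 0.97 with BaitA, 3.18 ± 1.11 with BaitB and 1.06 ± 0.69 with BaitC over 36 probes, so it was low with BaitA, by 2.23, and high with BaitB, by 1.69. H15 (chr2L:5404879-5415894, plus strand) averaged -1.64 ± 1.04 with BaitA, -1.61 ± 1.44 with BaitB and -0.94 ± 1.09 with BaitC over 36 probes and was low in every array, by 2.34 with BaitA, 3.10 with BaitB and 1.13 with BaitC.

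The NK homeobox genes and GATA factors, which specify mesoderm, blood and dorsal ectoderm, lay within 1 of their arm medians at starts, with an exception in each group. The start of the heart gene tin (chr3R:17204968-17207549, plus strand) averaged -2.14 ± 1.55 with BaitA, 0.74 ± 1.12 with BaitB and -0.01 ± 1.60 with BaitC over 36 probes, and was low with BaitA, by 2.52. Its neighbour bap differed by -0.05 with BaitA, 0.99 with BaitB and 0.19 with BaitC. Among the GATA genes, srp differed by 0.85 with BaitA, -0.37 with BaitB and -0.16 with BaitC, and pnr by 0.24 with BaitA, 0.07 with BaitB and -0.19 with BaitC at its starts. The span of pnr was high with BaitA, by 1.49. The start of grn was high with BaitB, by 1.45, and lay 0.54 and 0.57 below the 3R median with BaitA and BaitC.

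At starts, 12 of the 34 members kept their side of the arm median in all 3 arrays. Of these, 6 were above it throughout, namely Doc1, Doc2, Su(z)2, ap, ey and salr, where 16.2% of 12065 genes were. Another 6 were below it throughout, namely Dll, H15, esg, nub, salm and wor, where 16.4% of all genes were. By at least 1, H15 and nub were low in all 3 arrays, where 2.08% of all genes were, and no member was high in all 3, where 1.11% were. Over spans 4 members were above throughout (Doc1, ap, pnr and salr), against 16.6% of 11903 genes, and 8 below (Dll, H15, hth, nub, salm, slp1, tsh and wor), against 16.9%. The spans of nub and wor were low by at least 1 in every array, against 2.04% of all genes, and none was high by that much, against 1.45%. Across the 34 genes the start values correlated at 0.25 for the BaitA and BaitB arrays, at 0.32 for those of BaitA and BaitC, and at 0.30 for BaitB with BaitC. Over all 12065 genes the same correlations were 0.15 for BaitA with BaitB, 0.18 for BaitA with BaitC and 0.17 for BaitB with BaitC. These are across genes that are not independent, the arrays share their probes, and BaitA and BaitB also shared a slide.

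Whether neighbouring members lay closer to each other than arm pairs of like spacing depended on the window, the pairs taken and the bait. The listed neighbours gave 7 pairs (en with inv, slp1 with slp2, salm with salr, nub with pdm2, and the 3 pairs among the Doc genes), whose starts lay 11.4 to 78.8 kb apart and shared no probe. Both starts of a pair lay on the same side of the arm median in 2 of the 7 pairs with BaitA, 4 with BaitB and 3 with BaitC. Their absolute differences had medians of 1.49 with BaitA, 2.42 with BaitB and 1.04 with BaitC. For gene pairs of the same arms at 0.5 to 2 times the spacing, the medians were 1.42 with BaitA, 1.33 with BaitB and 0.71 with BaitC, and 3, 2 and 3 of the 7 pairs lay closer than their arm pairs. Over spans the members' median was 1.21 with BaitA, against 1.43 for arm pairs, 1.53 with BaitB, against 1.41, and 0.43 with BaitC, against 0.75, and 4, 3 and 6 of the 7 pairs lay closer. The closest listed pair with BaitA was en and inv, 0.30 apart, and the same genes were 1.70 apart with BaitC, farther than 87.3% of such arm pairs. The starts of nub and pdm2 were apart by 3.49 with BaitA, 3.24 with BaitB and 1.52 with BaitC, farther than 92.4%, 90.5% and 85.8% of arm pairs in those arrays, with pdm2 higher each time. Doc2 and Doc3, 13.6 kb apart, differed by 2.82 with BaitA and 3.63 with BaitB but by 0.15 with BaitC. Among 7 further neighbouring pairs, added after the values were seen, mid and H15 differed by 0.11 with BaitA and by 4.79 with BaitB, farther than 98.7% of arm pairs. With these pairs included, the median at starts was 1.56 with BaitA, against 1.38, 1.38 with BaitB, against 1.33, and 0.44 with BaitC, against 0.71, and 6, 6 and 8 of 14 pairs lay closer. Over spans 9, 8 and 10 of the 14 did. Psc and Su(z)2 differed by 2.21 with BaitA but by 0.33 and 0.18 with BaitB and BaitC.

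**Figure D3:**
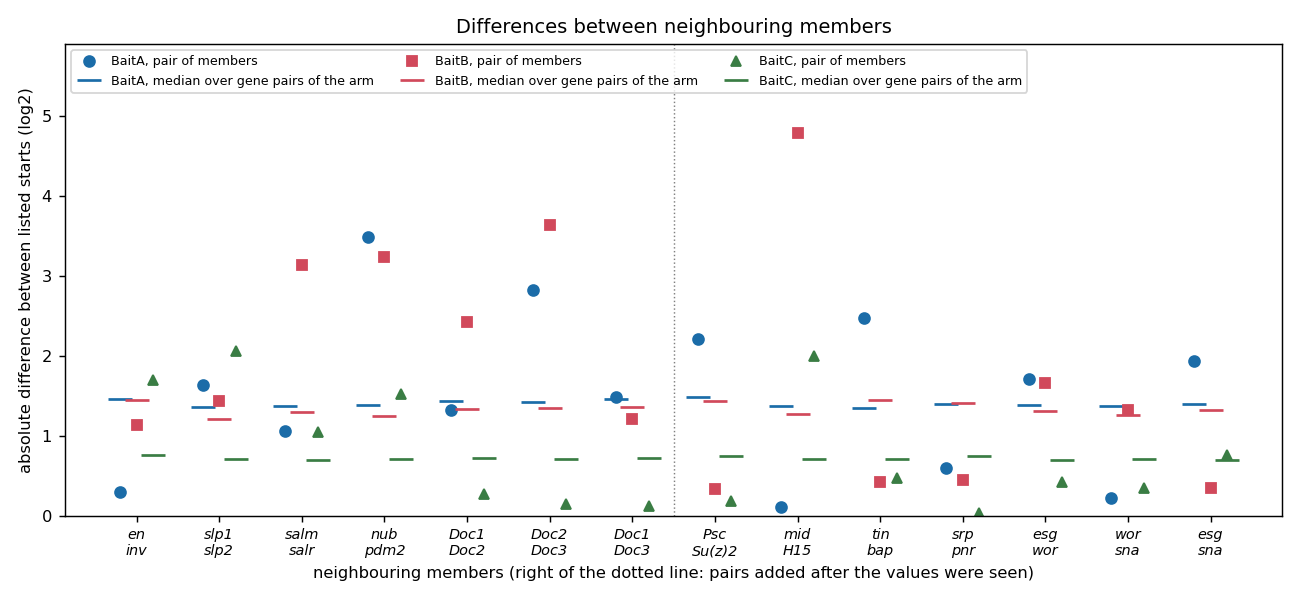
Absolute difference in mean log2 ratio between the starts of neighbouring members, one pair per position along the horizontal axis, in the 3 arrays (circle BaitA, square BaitB, triangle BaitC), with short lines for the median over gene pairs of the same arm at similar spacing. Pairs right of the dotted line were added after the values were seen. The differences run from 0.03 (srp and pnr, BaitC) to 4.79 (mid and H15, BaitB), on both sides of the lines.

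Member starts lay on both sides of their own surroundings. The start exceeded the mean of probes 10 to 50 kb away in 15 of 34 members with BaitA, against 56.3% of all genes, and the median contrast was -0.36 for members and 0.25 for all genes. With BaitB it did so in 21 members, against 56.3%, with medians of 0.46 and 0.25. With BaitC it did so in 21 members, against 60.3%, with medians of 0.11 and 0.21. The flanks themselves, a comparison chosen after the values were seen, lay above the arm's median flank in 23 members with BaitA, 18 with BaitB and 26 with BaitC, where 50.0% of genes do. Their median differences were small, at 0.10 with BaitA, 0.01 with BaitB and 0.16 with BaitC. In 12 members the flanks were above in all 3 arrays (Doc2, Doc3, Psc, Su(z)2, ap, en, nub, ph-p, pnr, slp1, slp2 and tin), against 25.7% of all genes. In Dll and salm they were below in all 3, against 26.5%. Flanks of close neighbours, such as slp1 and slp2, share probes, so these counts are not of independent genes. With neighbours counted once, flanks lay above in 13 of 22 units with BaitA, 12 with BaitB and 16 with BaitC. With flanks of 5 to 20 kb they did so in 19 of 34 members with BaitA, 14 with BaitB and 22 with BaitC. The start of nub, whose flanks lay 0.13 above the arm's median flank with BaitA, under 0.01 above it with BaitB and 0.24 above it with BaitC, contrasted with those flanks by -2.56 with BaitA, -3.01 with BaitB and -1.49 with BaitC. The high start of Doc2 exceeded its flanks by 2.69 with BaitA, 2.67 with BaitB and 0.34 with BaitC. Over 20 bins of 5 kb within 50 kb of the starts, the members' median stayed between -0.33 and 0.47 of the arm's gene median with BaitA, between -0.55 and 0.41 with BaitB and between -0.08 and 0.29 with BaitC.

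**Figure D4:**
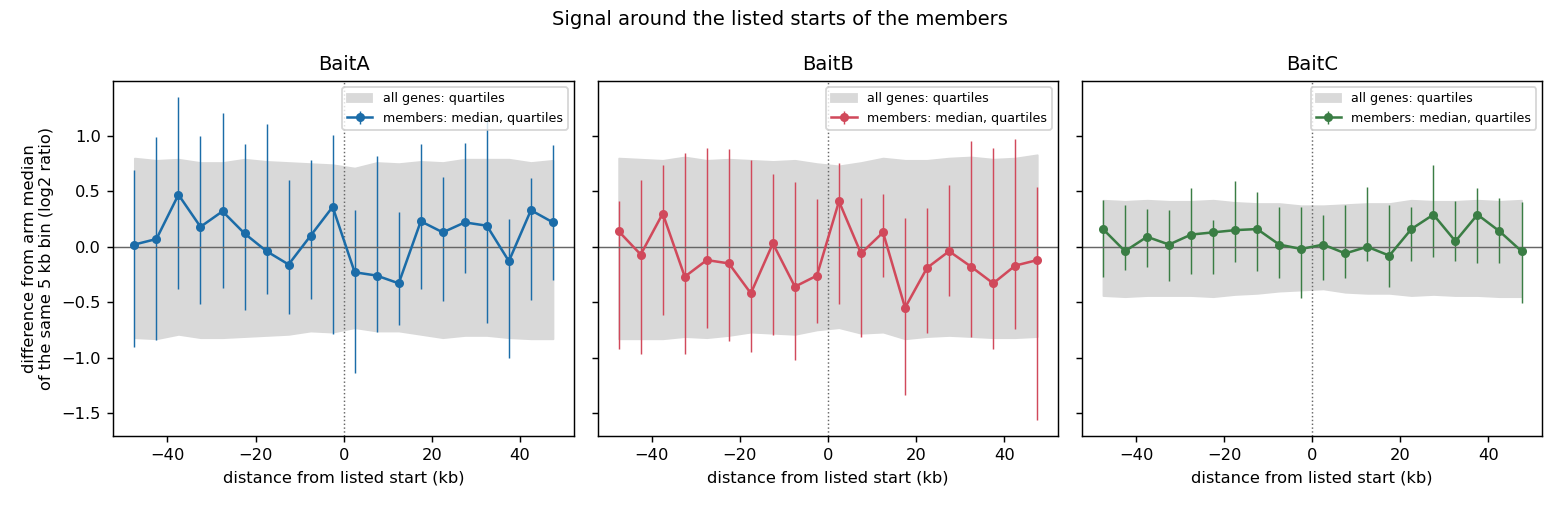
Median over members of the difference from the gene median of the arm, in log2 units, in 5 kb bins up to 50 kb on each side of the listed start (distance on the horizontal axis), for BaitA, BaitB and BaitC from left to right. Bars are quartiles over the members and the grey band spans the quartiles over all genes. The members' medians stay within the band in each array, between -0.55 and 0.47.

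The authors' peaks gave a second view that the averages over windows do not show. Peaks were called on each array alone, and a gene counted as paired when a peak with a false discovery rate (FDR) of at most 0.05 lay within 5 kb of it. Only genes with a peak of some bait at an FDR of at most 0.2 are in the tables, so all shares are of such genes. With BaitA 6 of 34 members were paired (Su(z)2, ph-p, salr, slp1, wg and wor), a lower share than the 31.2% of all genes. At the other FDR limits that order turned, since 25 of 34 were paired at an FDR of at most 0.2, against 69.8%, and 2 of 34 at an FDR of at most 0.01, against 2.51%. With BaitB 15 were paired, against 37.1%, and with BaitC 16, against 30.8%. Longer genes were paired more often. Among genes with spans of 5 kb or more, a split added after the values were seen, 4 of 22 members were paired with BaitA, against 42.0% of genes of that length, 12 with BaitB, against 47.6%, and 12 with BaitC, against 41.9%. Of the 12 members with shorter spans, 2 were paired with BaitA, against 28.9%, 3 with BaitB, against 34.9%, and 4 with BaitC, against 28.4%.

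No peak of any bait was paired with 14 members, where 32.5% of 12065 genes had none. These were dpp, Psc, slp2, sna, tsh, nub, pdm2, toy, Doc1, Doc3, mid, H15, bap and pnr. A further 7 were paired with peaks of 1 bait, against 41.1% of all genes, and 9 with peaks of a pair of baits, against 21.1%. The genes ph-p, salr, slp1 and wor were paired with peaks of all 3 baits, where 5.3% of all genes were. Inside a listed span lay 4 of the 7 member peaks of BaitA, 12 of the 21 of BaitB and 11 of the 19 of BaitC. The share of all peaks inside spans was not computed. Members' spans were longer, with a median of 7.2 kb against 1.71 kb, and whether length accounts for these counts was not tested.

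At an FDR of at most 0.05 few of the members' peaks overlapped between baits, and few of all peaks did. One of the 7 BaitA peaks overlapped 1 of the 21 BaitB peaks, upstream of slp1. One of the 7 BaitA peaks overlapped 1 of the 19 BaitC peaks, inside salr, and 1 of the 21 BaitB peaks overlapped 1 of the 19 BaitC peaks, upstream of wor. Of all peaks, 7.88% of those of BaitA overlapped one of BaitB and 5.07% one of BaitC, and 5.54% of those of BaitB overlapped one of BaitC. With peaks of FDR at most 0.2, an alternative added later, 15 of 62 member peaks of BaitA overlapped one of BaitB, against 14.7% of all, and 11 of 62 overlapped one of BaitC, against 10.3%. Of 68 member peaks of BaitB, 9 overlapped one of BaitC, against 11.1%. The BaitA peak in salr (chr2L:11369611-11369953, inside the span) averaged 6.64 in its own array, 5.07 with BaitB and 2.27 with BaitC. The BaitB peak near wor (chr2L:15426580-15426779, 1150 bp outside the span) averaged 6.39 in its own array, 4.37 with BaitA and 3.92 with BaitC. The start and span of wor were below the 2L median in every array although all 3 baits had a peak nearby; each of those peaks lay outside its span. The ph-p peak of BaitB at its start (chrX:2029791-2030049) averaged 4.26 in its own array but -2.49 with BaitA and -0.80 with BaitC. In hth, a BaitC peak (chr3R:6419274-6419831) averaged 3.24 in its own array and 4.13 with BaitA, but -2.35 with BaitB.

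Read in the arrays that had not called them, the members' peaks differed by bait. The 7 BaitA peaks were above the array median in all 7 cases with BaitB, against 55.7% of all BaitA peaks, with a median of 2.34 against 0.52. They were above it in 6 of 7 with BaitC, against 70.3%. The 21 BaitB peaks were above the array median in only 6 cases with BaitA, against 54.2% of all BaitB peaks, with a median of -0.56 against 0.26, and in 15 with BaitC, against 74.0%. The 19 BaitC peaks were above it in 10 cases with BaitA, against 54.8%, and in 16 with BaitB, against 56.6%, with a BaitB median of 1.52 against 0.48. Several of these peaks share a gene, so they are not independent. The arm of BaitB, where the array of that bait is high, held 5 of the 7 BaitA peaks and 7 of the 19 BaitC peaks, so the peaks were also split by arm, a step added later. On 2L all 5 BaitA peaks were above 0 with BaitB, against 72.0% of all BaitA peaks of that arm, with a median of 4.21 against 2.02, and on the other arms both were, against 50.7%. Of the BaitC peaks, 6 of 7 on 2L were above 0 with BaitB, against 73.2%, with a median of 3.77 against 2.06, and 10 of 12 on the other arms, against 53.5%, with a median of 1.18 against 0.21. The BaitB peaks below 0 in the BaitA array lay mostly on arms other than 2L, where 3 of 16 were above 0, against 52.0%, with a median of -0.59 against 0.12. On 2L 3 of 5 were above 0, against 63.5%, with a median of 3.30 against 0.74.

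**Figure D5:**
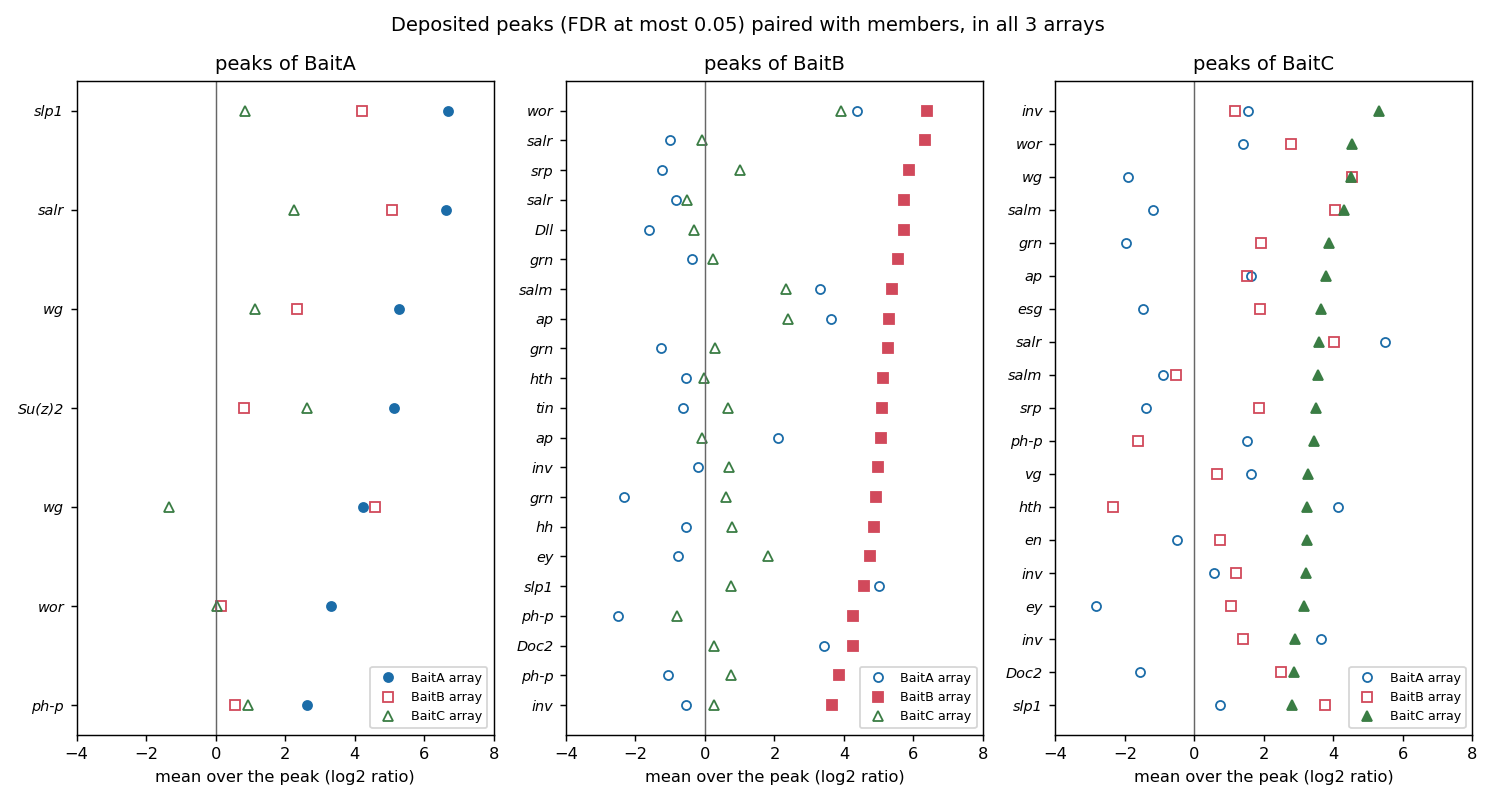
Mean log2 ratio (horizontal axis) over each deposited peak paired with a member, 1 row per peak, for the 7 BaitA, 21 BaitB and 19 BaitC peaks with an FDR of at most 0.05. Filled symbols are the array that called the peak, where a high value is given by the call, and open symbols are the other arrays. In the BaitA array 15 of the 21 BaitB peaks lie below 0.

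Other genes of the pathway also lay on both sides of their arm medians. Of 28 listed genes for Polycomb and trithorax group proteins that are not members, 24 were measured, and their starts lay above the arm's gene median in 10 genes with BaitA, 8 with BaitB and 9 with BaitC, against 50.0% of all genes. Their median differences were -0.41 with BaitA, -0.37 with BaitB and -0.30 with BaitC. Over spans 13 of the 24 lay above it with BaitA, 8 with BaitB and 8 with BaitC. The span medians were 0.02 with BaitA, -0.30 with BaitB and -0.18 with BaitC. High and low starts numbered 4 and 8 with BaitA, 6 and 9 with BaitB, and 0 and 4 with BaitC, to be read against the shares of all genes given above. The gene pho, whose product binds DNA at Polycomb response elements, averaged 4.03 ± 1.05 with BaitA and 2.41 ± 0.91 with BaitB (SD over 36 probes), 3.02 and 2.25 above the chromosome 4 median, and had the highest difference of this list with BaitA. The gene mor, a subunit gene of a chromatin remodelling complex, averaged -2.79 ± 0.85 with BaitA and -1.12 ± 1.57 with BaitC (36 probes) at its start. It had the lowest start difference of the list in both, -3.17 and -1.38. Its span was among the 3 highest of the list with BaitC, 0.46 above the arm's gene median. Of 47 other developmental regulators known as Polycomb targets, the starts of 15 of the 46 measured with BaitA, 25 of 47 with BaitB and 22 of 47 with BaitC lay above the arm's gene median, with median differences of -0.67 with BaitA, 0.13 with BaitB and -0.04 with BaitC. Over spans 21 of 46 did with BaitA, 26 of 47 with BaitB and 14 of 47 with BaitC. The span medians were -0.17 with BaitA, 0.11 with BaitB and -0.25 with BaitC. The gene hkb, a gap gene of the embryo's ends, had the highest start of them with BaitC, 2.91 ± 0.68 over 36 probes. Its span was the highest with BaitC, 2.73 above the arm's gene median, and the lowest with BaitB, at a difference of -3.07. The pair-rule gene opa was the highest with BaitA, 3.82 ± 1.06 over 36 probes.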

How the data were processed

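4C products and unligated DNA from S2-DRSC cells were compared on 1 two-channel tiling array per bait. Each probe's deposited value is a log2 ratio. Neither log base nor direction is written in the table, and base 2 was assumed. The deposited medians, -0.16, -0.14 and -0.02 for BaitA, BaitB and BaitC, were subtracted. NimbleScan called the peaks of every array on its own, per the file headers. Their scores are log2 ratios and their FDR, which serves as a q-value, comes from shuffled values. The deposited tables pair peaks of FDR at most 0.2 with transcripts within 5 kb.

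The sources used here do not name the authors' genome build. The arm lengths in the file headers are those of Drosophila Release 5. RefSeq names and gene lengths of Release 6 matched 16169 of 17767 accessions, and no coordinate was taken from them. All value columns belonged to a sample.

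Windows needed at least 5 probes, and 200 kb on each side of the array's bait was left out. Each gene was set against the median gene of its arm. All members are named. Those given with mean values in every array are the 5 highest and 5 lowest starts of each array and the listed neighbours. Members at least 1 from the median with the same sign in all arrays are given so too. Other members except ap are given as differences from the arm median. Full values of ap were added after they were seen. Genes outside the list are named from the 3 highest or lowest of their list. The 34 members and the lists were chosen with earlier results of these data known. Promoter sequences and their motifs were not analysed here. Python 3.11.15, numpy 2.4.6, pandas 2.3.3, scipy 1.17.1 and matplotlib 3.10.9 were used. The steps for start values were tested on simulated data with independent probes. Real probes correlate with their neighbours, so that test gives no error rate for these arrays. The alternatives are given in the closing section.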

Additional observations from a re-analysis of the deposited data

How the results depend on the processing

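Counts that changed by more than 1.5 times and medians that changed by 0.5 or more, a tolerance chosen with the values in view, are given here. Several alternatives could not move a value by construction: another centring cancels against the arm median, a threshold of 1 SD leaves medians and counts above the arm median as they are, and the minimum of 15 probes removes no start. Median differences near 0 did change sign. That of BaitC starts, 0.01, became -0.09 as a median over probes, -0.15 with a window of 0.5 kb, -0.02 with 5 kb and -0.06 with neighbours counted once, and that of BaitB flanks, 0.01, became -0.12 with flanks of 5 to 20 kb. No paired analysis was possible because each bait had 1 array, and no array could be left out. A single array and probes that correlate with their neighbours limit every value. Counts are given for BaitA, BaitB and BaitC as named.

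At starts, a window of 0.5 kb gave 17 low members with BaitA, against 30.7% of all genes, at a median difference of -0.95, and 2 high and 7 low with BaitC, against 14.5% and 14.7%. A window of 5 kb gave 4 high and 5 low with BaitA, against 10.4% and 10.8%, 4 and 4 with BaitB, against 11.0% and 11.1%, and 0 and 0 with BaitC, against 1.14% and 1.54%. The median over probes gave 3 high and 7 low with BaitC, against 11.7% and 13.2%. A threshold of 1 SD of the arm's genes gave 2 high with BaitA, 7 high with BaitB, and 4 high and 7 low with BaitC. Shares of all genes at that threshold were not computed, so these counts stand without a comparison. Leaving out 5 Mb around the bait left 25 members with BaitB, 7 high and 5 low, against 25.7% and 25.9%. Genes within 2 Mb as reference gave 4 high with BaitA, a count for which no share of all genes was computed. The most upstream start alone gave 2 high with BaitC, against 9.83%. With neighbours counted once, 22 units remain and counts fall by construction. Of them 8 were above and 5 high with BaitA, 6 were high with BaitB, and 9 were above, 0 high and 1 low with BaitC. No share of all genes was computed for such units.

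Over spans, the median over probes gave 5 high with BaitA, against 31.8%, 12 with BaitB, against 32.8%, and 2 with BaitC, against 12.8%. Leaving out 5 Mb gave 2 high and 0 low with BaitB, against 24.7% and 22.8%. A threshold of 1 SD gave 1 high and 6 low with BaitA and 1 high and 2 low with BaitB. Genes within 2 Mb gave 1 low with BaitC. For neither of these alternatives was a share of all genes computed. Neighbours counted once left 22 units, of which 6 were above, 1 high and 5 low with BaitA. Of these units 1 was high and 2 low with BaitB, and 8 were above and 1 low with BaitC. No share of all genes was computed for such units.

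An FDR of at most 0.2 paired 25 members with BaitA, against 69.8% of all genes, and 28 with BaitB, against 71.4%. An FDR of at most 0.01 paired 2 with BaitA, against 2.51%, 9 with BaitB, against 14.3%, and 9 with BaitC, against 16.9%. Peaks inside the span or within 1 kb of a start paired 9 with BaitB, against 21.1%. Median differences between neighbours became 1.53 with BaitB, against 1.41 for arm pairs, and 0.43 with BaitC, against 0.75, over spans, and with the added pairs 1.38, against 1.33, and 0.44, against 0.71. With BaitC members were thus farther apart than arm pairs at the starts of listed neighbours, 1.04 against 0.71, and closer under both alternatives. With neighbours counted once, the start exceeded its flanks in 9 of 22 units with BaitA and 13 of 22 with BaitC. Flanks lay above the arm's median flank in 13 and 16 of the 22. Shares of all genes were not computed for such units. Of the other developmental regulators, 14 spans lay above the arm's median with BaitC. Why these values moved was not tested, apart from the fall by construction.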
